A study of Mus musculus with 3 samples.

Results

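Perivascular macrophages of the medial vestibular nucleus (MVN) numbered 638 of the 13964 cells with at least 200 genes. A cell was taken as one of them when it held at least 1 unique molecular identifier (UMI, a tag that marks 1 captured RNA molecule) of at least 3 of 6 genes, Mrc1, Pf4, Cd163, F13a1, Lyve1 and Cbr2. The cells were thus selected on the values of these 6 genes, which are described below and not tested. They came from C57BL/6 mice operated in the right ear at postnatal day 20 and killed 1 day later. Control was the MVN of 10 mice in which the bulla was opened without unilateral labyrinthectomy (UL), ULI was the MVN on the operated side of 11 mice given UL, and ULC was the MVN on the opposite side of the UL group, also counted as 11 mice. Control held 278 of the macrophages, ULI 225 and ULC 135, of 4607, 4813 and 4544 cells. Mice were pooled into 1 library a group, so differences have no replicate check and p-values were not computed. The UL mice also had the ossicles removed, the stapedial artery coagulated and the cavity rinsed with ethanol, so the loss of the labyrinth and the rest of the operation cannot be told apart. GEO's treatment entry reads labyrinthectomy in each of the 3 records, and the control group rests on the source name and the study's methods. BD Rhapsody, Drop-seq and 10X are each named as the platform in one source or another, and the sources do not settle it.

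Perivascular macrophages lie in the space around blood vessels of the brain and, with those of the meninges and the choroid plexus, make up the border-associated macrophages. They take up material from blood and cerebrospinal fluid through scavenger receptors, present antigen and recycle iron, and they depend on the receptor of the growth factor CSF1, as do microglia, the macrophages of the brain tissue itself. The table gives no position for a cell, so cells from around vessels cannot be told apart from those of the meninges or the plexus.

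Levels are given as CPM, the UMIs of a gene in the macrophages of a library scaled to a total of 1e+06 UMIs, in the order control, ULI and ULC. Ratios are log2 ratios of CPM, and values in parentheses are exact 95% intervals, Poisson for levels and binomial for ratios and shares, which cover counting error only. A gene was called higher or lower where it had at least 20 UMIs in the 2 libraries together, a ratio of at least 2-fold and an interval that excluded 0, and "rose" and "fell" are used for such genes. The macrophages held 966839, 623633 and 351786 UMIs in all, with medians of 3134, 2694 and 2606 UMIs per cell and 5.62%, 5.42% and 5.13% mitochondrial UMIs. Over all cells the medians were 3177, 2100 and 931 UMIs, so the macrophages differed less in depth than the libraries did. The ULI and ULC ratios share the control cells and are set side by side, without a test of their likeness.

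The 6 genes of the rule were abundant in every library. Mrc1, the mannose receptor CD206, stood at 6726 (6564 to 6892) CPM for control, 8972 (8738 to 9210) for ULI and 7564 (7280 to 7857) for ULC. F13a1, the coagulation factor XIII A chain, stood at 4633 (4498 to 4770) CPM for control, 8070 (7849 to 8297) for ULI and 5466 (5225 to 5716) for ULC. Cd163, the receptor that clears haemoglobin bound to haptoglobin, was at 1660 (1580 to 1743) CPM for control, 2622 (2496 to 2752) for ULI and 1399 (1278 to 1528) for ULC. All 3 genes were highest in ULI, Cd163 was lowest in ULC and the others in control, and for none of them did the intervals of any pair of libraries overlap. Lyve1, a hyaluronan receptor, had 741 (687 to 797) CPM for control, 2096 (1984 to 2213) for ULI and 1509 (1384 to 1643) for ULC, and so was lowest in control. The chemokine Pf4 stood at 2184 (2092 to 2280) CPM for control, 1114 (1033 to 1200) for ULI and 597 (519 to 683) for ULC, and Cbr2, a carbonyl reductase, at 1172 (1105 to 1242) CPM for control, 391 (344 to 444) for ULI and 526 (453 to 607) for ULC, so that both were highest in control. In microglia-like cells, those with at least 3 of 6 microglia markers and at most 1 of the 6 macrophage genes, Mrc1 was at 17.8, 23.2 and 29.6 CPM and Cd163 at 0.161, 0.527 and 0.988 CPM. In mm10, Mrc1 lies on chromosome 2 at 14229392 to 14332057 (plus strand), F13a1 on chromosome 13 at 36867178 to 37050244 (minus strand) and Cd163 on chromosome 6 at 124304656 to 124330527 (plus strand).

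**Figure D1:**
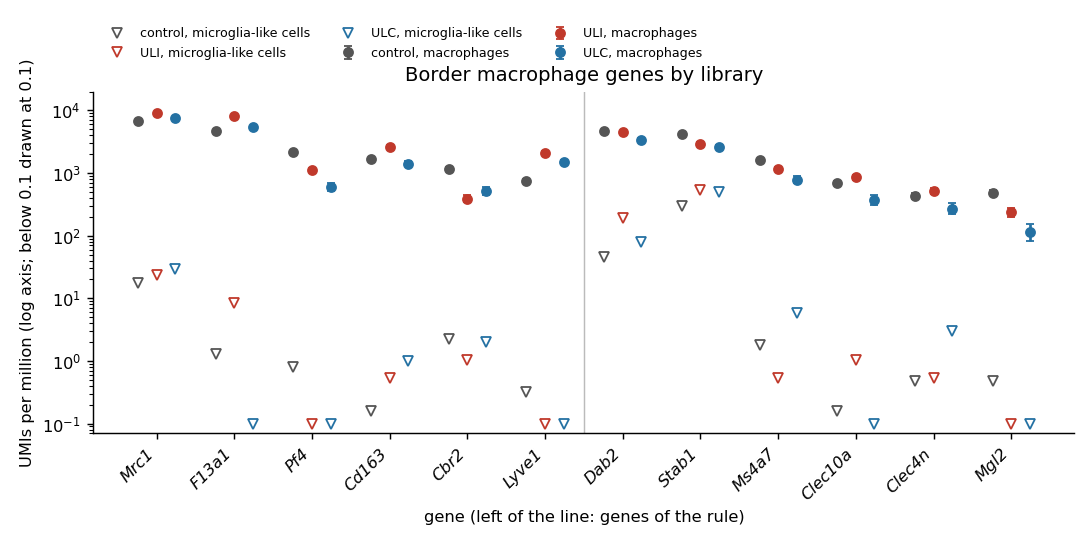
Levels of 12 genes in macrophages (filled circles, with Poisson 95% intervals) and in microglia-like cells (open triangles) of the 3 libraries, in CPM on a log axis. The 6 genes on the left chose the cells, and all 12 lie above 100 CPM in the macrophages of every library, with Dab2 and Stab1 the ones that microglia-like cells also hold at more than 10 CPM besides Mrc1.

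Because each of these genes helped to choose the cells, it was also measured in cells chosen by at least 2 of the other 5. On that footing the ratio of ULI to control was 1.59 (1.46 to 1.72) for Lyve1, 0.89 (0.83 to 0.94) for F13a1, 0.68 (0.58 to 0.78) for Cd163 and 0.43 (0.38 to 0.48) for Mrc1. The same ratio was -0.99 (-1.11 to -0.86) for Pf4 and -1.62 (-1.82 to -1.42) for Cbr2. For ULC to control, Pf4 was at -1.89 (-2.10 to -1.68), Cbr2 at -1.22 (-1.45 to -0.99) and Lyve1 at 1.04 (0.88 to 1.21), while Cd163 was at -0.24 (-0.39 to -0.09). The order of the libraries was the same for each of the 6 genes. Every macrophage of the main rule also meets this choice, which adds only cells without a UMI of the gene measured. The sets are thus largely the same cells, and the kept order is not an independent check.

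Cells near the edge of the rule held less of a macrophage gene that the rule did not use. The 107 cells with exactly 3 of the 6 genes had Dab2, an adaptor of endocytosis, at 2692 CPM, and the 132 cells with all 6 had it at 5333 CPM. The 82 cells just outside the rule, with 2 of the genes, had Dab2 at 851 CPM. In a clustering of all cells, 632 of the 638 fell into 1 cluster, which held 85 other cells with a median of 1150 UMIs, 61 of them with 2 of the genes. Of the 209, 249 and 454 barcodes with under 200 genes, 0 held 3 of them.

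Genes outside the rule also set these cells apart from microglia-like cells. Among genes of at least 100 CPM in the macrophages of every library, the 20 with the highest ratio to microglia-like cells included all 6 genes of the rule and Ms4a7, a membrane protein of border macrophages, at 1587, 1177 and 787 CPM against 1.77, 0.527 and 5.93 CPM in microglia-like cells. Next came the C-type lectins Clec10a, at 688, 851 and 372 CPM, and Clec4n (dectin-2), at 428, 526 and 270.1 CPM. The metalloprotease Adam33 at 324, 380.0 and 253 CPM and the scavenger receptor Colec12 at 312, 499 and 398 CPM followed. These ratios compare cells chosen by the genes of each class and are given as a description. The factor Maf, at 5631, 5668 and 4477 CPM, Dab2, at 4683, 4586 and 3420 CPM, and the scavenger receptor Stab1, at 4220, 2949 and 2595 CPM, were among the most abundant genes of the border macrophage list.

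Markers of blood leukocytes were at or near 0. Ly6c2, Plac8 and Chil3, which mark monocytes, had 0 UMIs in all 3 libraries, and Ccr2 had 0 in ULI and ULC. The 6 monocyte genes summed to 13.4, 41.7 and 8.53 CPM, with 0 macrophages holding 2 of them. The 6 neutrophil genes summed to 7.24, 11.2 and 8.53 CPM, and those of T and NK cells had 0 UMIs in each library. The MHC class II gene H2-Aa, which presents antigen to helper T cells, had 2, 0 and 0 UMIs. Cd74, the chain that guides these molecules through the cell, stood at 40.3 (28.7 to 55.1) CPM for control, 16.0 (7.69 to 29.5) for ULI and 31.3 (15.6 to 55.9) for ULC, with a ratio of -1.33 (-2.498 to -0.30) in ULI that was called lower on 39, 10 and 11 UMIs, and it was the 1 gene of 8 in the MHC class II list with enough UMIs to compare.

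Microglia markers were present above their level in endothelial-like cells and differed between libraries. The 6 genes summed to 1484, 977 and 770 CPM in the macrophages, 1 or fewer of them being at 0 (none in control, Tmem119 in ULI, Sall1 in ULC), and 62.6%, 34.2% and 22.2% of the cells held at least 2. In endothelial-like cells the sums were 143, 43.6 and 96.4 CPM. P2ry12, an ADP receptor of microglia, stood at 666 (616 to 719.6) CPM for control, 428 (378 to 483) for ULI and 296 (242 to 358) for ULC in the macrophages, against 4971, 3237 and 2422 CPM in microglia-like cells. Myelin genes also moved with the library, the 6 oligodendrocyte markers summing to 1126, 197 and 523 CPM, with 0, 1 and 2 of them at 0, and 17.3%, 5.33% and 4.44% of the macrophages held at least 2 of them, against 19.96%, 5.71% and 7.30% of microglia-like cells. The 6 choroid plexus markers summed to 61.0, 264.6 and 1038 CPM, nearly all of it Ttr, the plexus transport protein, with 4, 3 and 4 of the 6 at 0. The share of plexus-like cells in the libraries was 0.847%, 3.76% and 13.3% in the same order. Pericyte markers summed to 23.8, 276 and 28.4 CPM, and to 16.2, 247 and 72.1 CPM in microglia-like cells. The part of such foreign RNA in the differences below was not tested beyond the alternatives named beside them.

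The share of macrophages depended on what it was set against. As a share of all cells, control had 6.03% (5.36 to 6.76) macrophages, ULI 4.67% (4.10 to 5.31) and ULC 2.97% (2.497 to 3.51), with intervals that did not overlap. Of macrophages and microglia-like cells together they made up 14.5% (12.96 to 16.2), 25.3% (22.5 to 28.3) and 30% (25.8 to 34.5), in the opposite order. Microglia-like cells made up 35.6%, 13.8% and 6.93% of control, ULI and ULC. Per 100 endothelial-like cells there were 172, 232 and 99.3 macrophages. With at least 500 genes per cell the shares of all cells were 6.69%, 6.22% and 4.81%. Cells with at least 1000 UMIs were also thinned to that number and shallower cells left out, which gave 6.21%, 5.79% and 4.86%. The median over all ULC cells was 931 UMIs, so most cells of that library fell outside this last share. The gaps of ULI and of ULC to control were thus smaller among deeper cells. Fewer macrophages and more of other captured cells cannot be told apart from these shares.

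**Figure D2:**
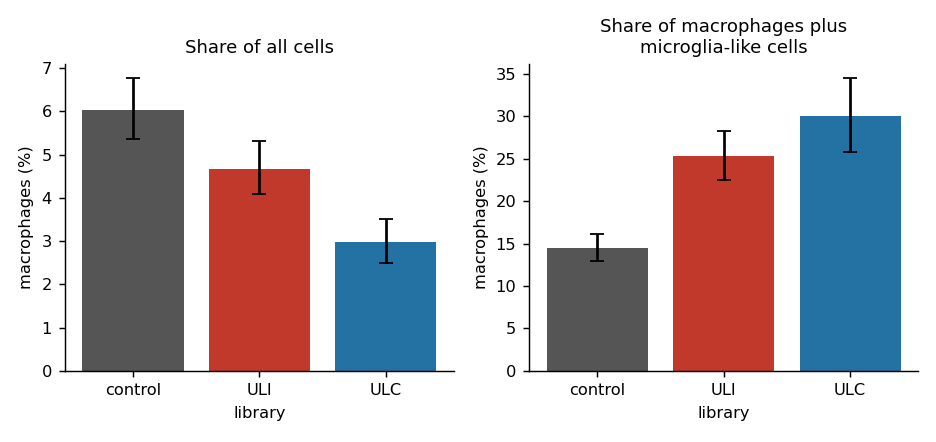
Macrophages as a percent of all cells (left) and of macrophages plus microglia-like cells (right) in the 3 libraries, with exact binomial 95% intervals for counting error. The share of all cells is highest in control, at 6.03%, and the share of the pair of classes is highest in ULC, at 30%.

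Genes of 1 chemokine cluster went different ways. Cxcl1, Cxcl2 and Pf4 lie within 1 stretch of mouse chromosome 5 and encode CXC chemokines, of which Cxcl1 and Cxcl2 attract neutrophils. Cxcl2 stood at 568 (521 to 617) CPM for control, 3032 (2897 to 3172) for ULI and 5097 (4864 to 5338) for ULC. It rose in both, by 2.42 (2.28 to 2.56) in ULI and 3.17 (3.03 to 3.31) in ULC, and 29.5%, 58.7% and 73.3% of the macrophages held a UMI of it. Cxcl1 stood at 85.8 (68.4 to 106) CPM for control, 579 (521 to 642) for ULI and 839 (746 to 939.9) for ULC and rose by 2.75 (2.41 to 3.12) and 3.29 (2.93 to 3.66), with 6.12%, 15.1% and 19.3% of the cells holding it. A single ULC cell held 29.5% of the Cxcl1 UMIs there. Pf4, which helped to choose the cells, had ratios of -0.97 (-1.10 to -0.85) in ULI, short of 2-fold, and -1.87 (-2.08 to -1.67) in ULC. In microglia-like cells the ratios of Cxcl2 were 1.98 and 1.81. The median ratio of the other cell classes in ULI was 2.95, and less that median the ratio of the macrophages turned to -0.54.

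The sequences before these 3 genes are shown because they belong to 1 cluster and their levels differed in opposite directions. In GENCODE, Pf4 spans chr5:90772435-90773383, Cxcl1 chr5:90891241-90893115 and Cxcl2 chr5:90903871-90905938, all on the plus strand of mm10. Each line gives the 120 bases from 150 to 31 bases upstream of the RefSeq start (GRCm38.p6, plus strand, 5′ to 3′), at chr5:90891095-90891214 for Cxcl1, chr5:90903749-90903868 for Cxcl2 and chr5:90772285-90772404 for Pf4. Capitals mark matches to GGNNTTTCC on either strand, a form of the site bound by NF-kB.
Cxcl1: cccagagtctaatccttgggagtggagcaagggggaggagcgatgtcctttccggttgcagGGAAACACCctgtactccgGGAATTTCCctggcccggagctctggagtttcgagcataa
Cxcl2: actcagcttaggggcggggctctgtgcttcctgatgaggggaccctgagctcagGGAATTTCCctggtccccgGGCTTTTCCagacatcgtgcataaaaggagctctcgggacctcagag
Pf4: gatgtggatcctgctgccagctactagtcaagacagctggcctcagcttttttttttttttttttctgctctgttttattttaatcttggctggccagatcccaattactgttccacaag
Cxcl1 held matches starting 89 and 70 bases upstream, Cxcl2 held them 96 and 77 bases upstream, and Pf4 had 0 in the whole window of 250 bases before and 50 after the start. Of the promoter windows of 27025 mouse genes, 1790 (6.62%) held such a match, as did 5 of the 12 chemokine genes with a window in the RefSeq table, of 18 in the list, and 9 of 18 inflammatory genes with one, of 26. The site of AP-1, TGANTCA, was absent from all 3 windows and was found in 8.97% of the 27025, in 3 of the 12 chemokine windows (25%) and in 4 of the 18 inflammatory ones (22.2%). The inflammatory list was drawn up to hold genes of the NF-kB pathway, so its share of matches is not an independent result. A match is a run of letters and does not show that a factor binds there, and a link to the levels was not tested.

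Over the list of 18 chemokines, 14 could be measured in ULI and 13 in ULC. In ULI 5 rose and 0 fell, against 6.91% of all 7631 genes called higher and 12.1% called lower, and the median ratio was 0.72 against -0.01 for all genes. In ULC 4 rose and 1, Pf4, fell, against 10.2% of 7367 genes called higher and 10.8% called lower, with a median of 0.58 against -0.08. Pf4 was a gene of the rule, so its place in these counts is a description. The medians in microglia-like cells were 1.26 and 1.002, and less the median of the other classes the medians of the list were 0.058 over 8 genes in ULI and 0.58 over 6 in ULC. Ccl9, which attracts myeloid cells, stood at 143 (119.9 to 169) CPM for control, 558 (501 to 619.8) for ULI and 344 (285 to 411) for ULC, a rise of 1.97 (1.68 to 2.26) and 1.27 (0.90 to 1.63), while its ratios in microglia-like cells were -0.07 and -0.98. Cxcl10, an interferon-induced attractant of T cells, was at 31.03 (20.9 to 44.3) CPM for control, 253 (215 to 296) for ULI and 222 (175 to 277) for ULC and rose by 3.03 and 2.84, with 36.1% of its ULI UMIs in 1 cell. Ccl2, the main attractant of monocytes, stood at 1270, 1568 and 1359 CPM, with ratios of 0.30 (0.18 to 0.43) and 0.10 (-0.06 to 0.25), and was not called. Ccl3 was at 824, 1308 and 1276 CPM and was not called either, at 0.67 and 0.63, whereas its ratios in microglia-like cells were 1.56 and 1.63. Ccl8 rose in ULI on 18, 28 and 0 UMIs in the 3 libraries.

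Cytokines and genes of the NF-kB pathway had the highest median of the lists against control on both sides. Of 19 measured genes 12 rose and 0 fell in ULI, and of 20 measured 13 rose and 1 fell in ULC, with medians of 1.56 and 1.59. Over all genes, 6.91% were called higher and 12.1% lower in ULI, and 10.2% and 10.8% in ULC. In microglia-like cells the medians of the list were 1.057 and 1.09. Less the median of the other classes, the medians of the list were 0.19 over 19 genes in ULI and 1.18 over 18 in ULC. In ULI those of the immediate early and cell cycle lists, at 0.38 each, and of the interferon list, at 0.207, were higher. Nlrp3, the sensor of the inflammasome that processes interleukin 1, stood at 149 (126 to 175) CPM for control, 827 (758 to 902) for ULI and 864 (769.7 to 967) for ULC. It rose by 2.47 (2.20 to 2.75) and 2.54 (2.25 to 2.83), to like levels in ULI and ULC, and its ratios in microglia-like cells were 1.057 and 1.40. Tnfaip3 (A20), which restrains NF-kB signalling, was at 149.97 (127 to 176) CPM for control, 595 (536 to 659) for ULI and 889.7 (794 to 994) for ULC and rose by 1.99 (1.71 to 2.28) and 2.57 (2.28 to 2.86). Cd83, a surface protein of activated antigen-presenting cells, was at 149.97 (127 to 176) CPM for control, 701 (637 to 769.6) for ULI and 819 (727 to 919) for ULC, with ratios of 2.22 (1.95 to 2.51) and 2.45 (2.16 to 2.75). All 3 genes were lowest in control, and only the ULI and ULC intervals of Nlrp3 and Cd83 overlapped.

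Other members of the list moved in the same direction. Nfkbiz, an atypical inhibitor of NF-kB, stood at 576, 1515 and 1745 CPM and rose by 1.40 and 1.60. Il1b, interleukin 1 beta, was at 71.4, 295 and 264 CPM and rose by 2.05 (1.64 to 2.47) and 1.89 (1.42 to 2.36), and its ratios in microglia-like cells were 4.39 and 4.12. No difference between the 2 cell classes was tested. Osm, oncostatin M, stood at 53.8, 200.4 and 381 CPM and rose by 1.90 and 2.82. A single ULC cell held 37 UMIs of Osm, against a median of 1 in the ULC cells that held it. For Il1b, 1 control cell held 17 UMIs, against a median of 2 in the control cells that held it. Tlr2, a receptor for bacterial lipoproteins, was at 119, 351 and 358 CPM, a rise of 1.56 and 1.59, and the NF-kB subunit Rel was at 64.1, 181 and 202 CPM, a rise of 1.499 and 1.65. Ptgs2, which makes prostaglandins, was at 42.4, 149 and 111 CPM, with 46.3% of its control UMIs in 1 cell, and Icam1, an adhesion protein, at 6.21, 22.4 and 39.8 CPM. Both rose in ULI and ULC. Cd14, the co-receptor for endotoxin, was at 199.6, 601 and 839 CPM and rose by 1.59 and 2.07, yet less the median of the other classes its ratios turned to -1.51 and -0.62, as did those of Ptgs2 to -0.83 and -0.63.

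Nfkbia, the inhibitor that holds NF-kB in the cytoplasm, differed between the sides. It stood at 819 (763 to 878) CPM for control, 824 (754 to 899) for ULI and 2010 (1864 to 2164) for ULC, so that it rose in ULC, by 1.29 (1.15 to 1.44), with a ULI to ULC ratio of -1.29 (-1.45 to -1.12), while control and ULI overlapped. Ier3, an early response gene, was at 762, 539 and 887 CPM and was not called, and Il18 fell in ULC, at 125, 172 and 54.0 CPM. Il1a rose in ULI, at 11.4, 83.4 and 28.4 CPM, where it was 1 of the 10 largest ratios. That set also held Plaur, the urokinase receptor, with 4, 50 and 30 UMIs and ratios of 4.28 (2.83 to 6.21) and 4.37 (2.86 to 6.33), and Clec4d, a lectin that senses mycobacteria, with 11, 116 and 30 UMIs and ratios of 4.03 (3.14 to 5.07) and 2.91 (1.87 to 4.05).

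**Figure D3:**
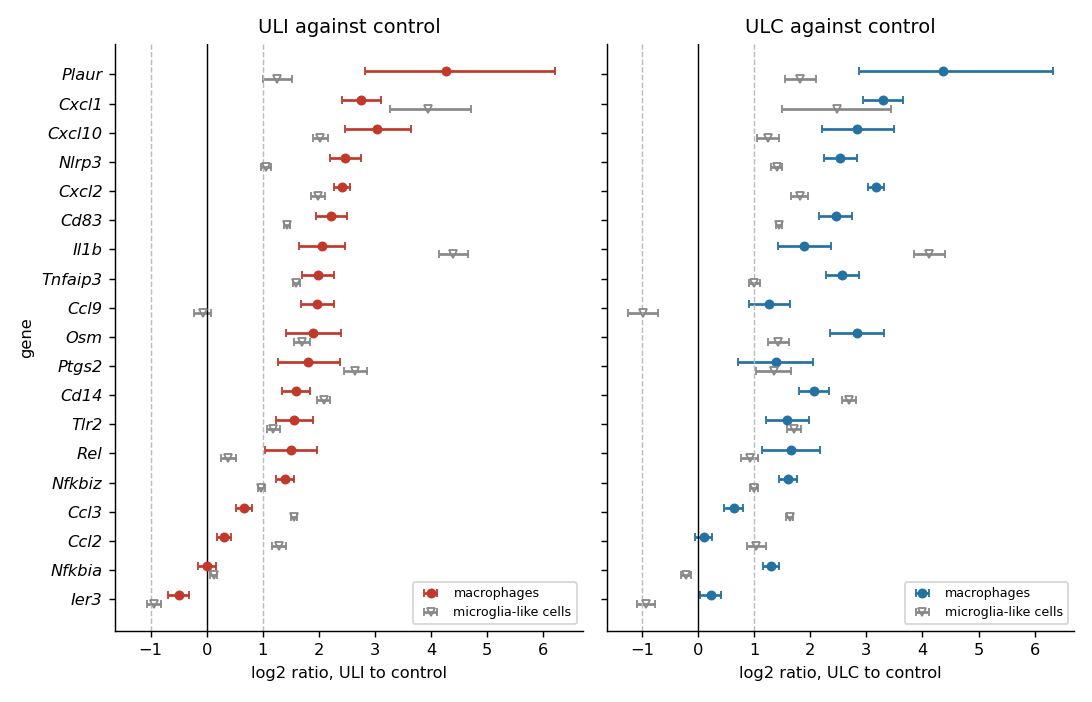
Log2 ratios of ULI to control (left) and ULC to control (right) for 19 chemokine and inflammatory genes in macrophages (filled circles) and microglia-like cells (open triangles), with exact 95% intervals for counting error and dashed lines at 2-fold. Cxcl1, Cxcl2, Nlrp3 and Tnfaip3 lie past 2-fold on both sides, Nfkbia does so in ULC only, and Il1b is further right in microglia-like cells than in macrophages.

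The share of cells that held Cxcl2 and Nlrp3 was also larger at equal depth. With every cell thinned to 1000 UMIs, which left out 14, 14 and 19 shallower macrophages, the share with a UMI of Cxcl2 was 23.9% (18.9 to 29.5) for control, 51.7% (44.7 to 58.6) for ULI and 67.2% (57.9 to 75.7) for ULC, and for Nlrp3 it was 10.98% (7.48 to 15.4) for control, 32.2% (26.0 to 39.0) for ULI and 38.8% (29.9 to 48.3) for ULC. In microglia-like cells the same shares were 8.12%, 19.5% and 18.0% and 33.4%, 46.4% and 57.3%. Without thinning, 28 of 278 control cells (10.1%), 77 of 225 ULI cells (34.2%) and 68 of 135 ULC cells (50.4%) held both Cxcl2 and Nlrp3, and their intervals of 6.80 to 14.2%, 28.0 to 40.8% and 41.6 to 59.1% did not overlap. Both Cxcl1 and Cxcl2 were held by 12, 33 and 24 cells.

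**Figure D4:**
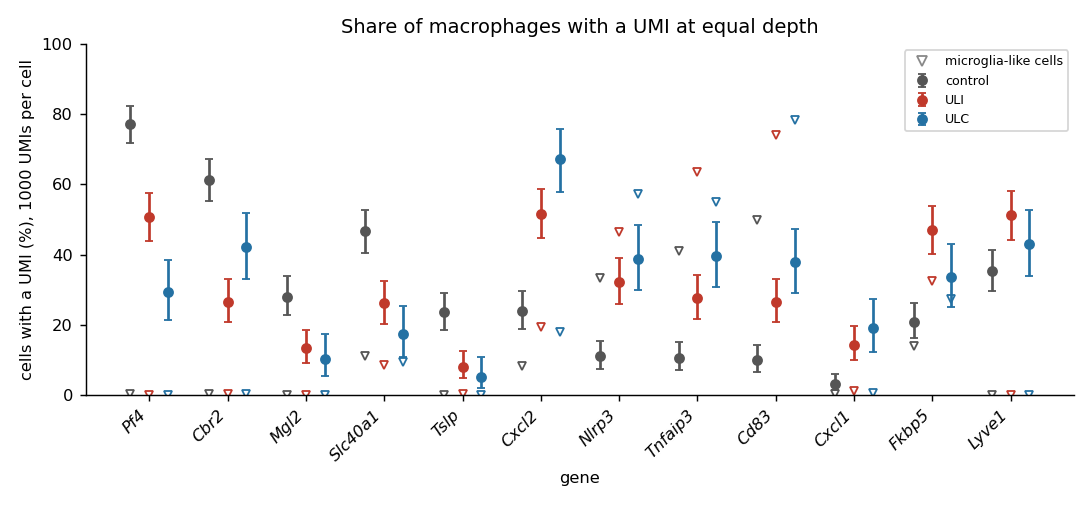
Percent of macrophages (filled circles, exact binomial 95% intervals) and of microglia-like cells (open triangles) with at least 1 UMI of 12 genes. Each cell with at least 1000 UMIs was thinned to that number, and shallower cells were left out. Pf4, Mgl2, Slc40a1 and Tslp decline from control to ULC while Cxcl2, Nlrp3 and Tnfaip3 climb, and the levels of Pf4, Mgl2 and Tslp in microglia-like cells are close to 0.

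Border macrophage genes outside the rule leaned downward. Of 32 measured in ULI, 1 rose and 11 fell, with a median of -0.47, against 6.91% of all genes called higher and 12.1% lower. Of 33 measured in ULC, 4 rose, a share near the 10.2% of all genes, and 9 fell, against 10.8%, with a median of -0.59. The medians of the list were -0.26 over 17 genes and -0.48 over 20 less the median of the other classes. The list held 487, 237 and 114 CPM of Mgl2, a lectin for galactose (CD301b), with ratios of -1.04 (-1.31 to -0.77) and -2.10 (-2.60 to -1.63). Its share of cells after thinning was 28.0%, 13.3% and 10.3%. Tslp, a cytokine of barrier tissues, stood at 299.9 (266 to 337) CPM for control, 123 (97.4 to 154) for ULI and 68.2 (43.7 to 102) for ULC and fell, at -1.28 (-1.66 to -0.91) and -2.14 (-2.80 to -1.53). Neither gene was found in microglia-like cells at more than 1 CPM, and no interval of control overlapped those of ULI or ULC. Clec12a, an inhibitory lectin, had 85, 13 and 7 UMIs and fell in both, at -2.08 and -2.14. Pla2g2d, a secreted phospholipase, fell on 55, 5 and 3 UMIs, with ratios of -2.83 (-4.51 to -1.52) and -2.74 (-5.06 to -1.12). Fcrls, an Fc receptor-like protein that microglia share, was at 1809, 871 and 637 CPM and fell, at -1.05 and -1.51, but less the median of the other classes the ULC ratio was 0.04. Cd209f, a lectin, had 199, 54 and 0 UMIs, with 74.9% of those of control in 1 cell, and its ULI ratio of -1.25 turned to 0.22 without the cells that held markers of another class.

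Some members of that list moved the other way or on 1 side. Ahnak, a large scaffold protein, rose in both, at 155, 393 and 327 CPM, with ratios of 1.34 (1.04 to 1.64) and 1.08 (0.71 to 1.44). Igfbp4, a binding protein of insulin-like growth factors, stood at 1860 (1775 to 1948) CPM for control, 914 (840.5 to 992) for ULI and 941 (842 to 1048) for ULC and was called lower in ULI, at -1.02 (-1.16 to -0.89), while in ULC it was just short of 2-fold at -0.98 (-1.16 to -0.81). Its ratios in microglia-like cells were -1.46 and -0.83. Ms4a7 fell in ULC, at -1.01 (-1.20 to -0.83), and was at -0.43 (-0.56 to -0.30) in ULI. The scavenger receptor Cd36 fell in ULC, at 779, 545 and 372 CPM. Maf, Dab2 and Stab1 were not called on either side, with ratios of 0.01, -0.03 and -0.52 in ULI and -0.33, -0.45 and -0.70 in ULC. Fcgrt, the neonatal Fc receptor, was at 429, 143 and 898 CPM, so that it fell in ULI and rose in ULC, as it did in microglia-like cells in ULC (2.02), and less the median of the other classes the ULC ratio turned to -0.72.

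Iron, scavenging and lysosomal genes were mixed. Slc40a1 (ferroportin), which exports iron from macrophages that recycle haem, stood at 921 (861 to 983) CPM for control, 391 (344 to 444) for ULI and 230.3 (183 to 286) for ULC and fell, at -1.23 (-1.44 to -1.03) and -2.00 (-2.35 to -1.67), its intervals being apart in all 3 libraries. The ratios in microglia-like cells were -0.53 and -0.57. Slc48a1, a transporter of haem, also fell, at 96.2, 30.5 and 42.6 CPM, as did Blvrb and Ncoa4 in ULI. Hmox1, which breaks down haem, was at 448, 420.1 and 537 CPM and was not called, nor was Fth1, a ferritin chain, at 8462, 12886 and 9489 CPM. In all, 0 of 12 iron genes rose and 4 fell in ULI, against 6.91% and 12.1% of all genes, and 2 of 13 rose, Ftl1 and Blvra, and 2 fell in ULC, near the 10.2% and 10.8% of all genes. Of 22 scavenger and endocytic genes 1 rose and 5 fell in ULI, and 3 rose and 1 fell in ULC, with medians of -0.10 and -0.11, and Lyve1, which chose cells, was among those that rose in both. Cd163, also a gene of the rule, is on the iron and scavenger lists and Mrc1 on the scavenger list, and neither was called against control. Lysosomal and lipid genes had medians of -0.28 and -0.51, with 1 of 25 higher and 6 lower in ULI, and 5 of 24 higher and 1 lower in ULC. Apoe, a carrier of lipids, was at 5992 (5838 to 6148) CPM for control, 2429 (2309 to 2555) for ULI and 4241 (4029 to 4462) for ULC and fell in ULI, where the ratio less the median of the other classes was 0.11, and Cst3, an inhibitor of cathepsins, was at 5656, 1137 and 3010 CPM and fell in ULI, at -2.31 (-2.43 to -2.20). Hexa, a lysosomal hexosaminidase, was at 239, 60.9 and 941 CPM, lower in ULI and higher in ULC, with ratios in microglia-like cells of -1.31 and 2.21 and a ULC ratio of -0.76 less the median of the other classes.

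Complement and antigen presentation genes had calls in both directions. Of 12 complement genes 1 rose and 3 fell in ULI, and of 11 in ULC 1 rose and 3 fell, with medians of -0.33 and -0.30. The share of all genes called was 6.91% higher and 12.1% lower in ULI and 10.2% and 10.8% in ULC. C1qc, a chain of the initiating complex C1q, was at 3465 (3349 to 3584) CPM for control, 1711 (1610 to 1817) for ULI and 1677 (1545 to 1818) for ULC and fell, at -1.02 and -1.05, though less the median of the other classes the ULI ratio was 0.11, and C1qb was at 2487, 1942 and 1561 CPM and was not called. C1qa was at 387, 212 and 1953 CPM against 312, 215 and 2035 CPM in microglia-like cells, so the 3 chains of 1 complex did not move together in ULC in either class. The complement protease gene C2 had 121, 37 and 19 UMIs and fell in both. Among MHC class I genes, which display peptides from within the cell, 0 of 10 rose and 3 fell in ULI, and 1 of 11 rose and 2 fell in ULC. Tapbp, which loads the peptides, was at 213 (185 to 244) CPM for control, 49.7 (33.8 to 70.6) for ULI and 82.4 (55.2 to 118) for ULC and fell, at -2.10 (-2.69 to -1.55) and -1.37 (-1.98 to -0.80), and its ratios in microglia-like cells were -1.56 and -0.91. B2m and H2-D1, at 2987, 2545 and 1976 CPM and 1532, 965 and 1194 CPM, were not called.

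Interferon-induced genes had 4 of 21 higher and 1 lower in ULI, against 6.91% and 12.1% of all genes, with a median of 0.36. In ULC 2 of 21 rose, near the 10.2% of all genes, and 6 fell, against 10.8%, with a median of -0.31. For Ifit1 and Rsad2, both among the 4, 1 ULI cell held 85.7% and 81.2% of the ULI UMIs. Ifi207, an interferon-induced nuclear protein, rose in both, at 274 (242 to 309) CPM for control, 714 (649 to 783) for ULI and 893 (797 to 997) for ULC, with ratios of 1.38 (1.16 to 1.61) and 1.703 (1.46 to 1.94). Rtp4, a chaperone of receptors, was at 119, 181 and 37.0 CPM and fell in ULC, at -1.69 (-2.64 to -0.86). The list's medians in microglia-like cells were 0.94 and 0.56.

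Immediate early genes, which cells switch on within minutes of a stimulus, including the handling of tissue, had calls mostly upward. Of 22 genes 5 rose and 0 fell in ULI, against 6.91% and 12.1% of all genes, with a median of 0.47, and 13 rose and 1 fell in ULC, against 10.2% and 10.8%, with a median of 1.04. In microglia-like cells the medians were -0.11 and 0.12. Fos was at 1903 (1817 to 1992) CPM for control, 4084 (3927 to 4246) for ULI and 4733 (4508 to 4966) for ULC and rose by 1.10 (1.01 to 1.19) and 1.31 (1.22 to 1.41). Zfp36, which speeds the decay of cytokine RNAs, was at 1350 (1278 to 1425) CPM for control, 3621 (3473 to 3773) for ULI and 3946 (3741 to 4159) for ULC and rose by 1.42 (1.32 to 1.52) and 1.55 (1.44 to 1.66). Fosl2, a partner of Jun, was at 108, 451 and 478 CPM, a rise of 2.07 and 2.15, and Maff, a small Maf factor, at 24.8, 129.9 and 205 CPM, a rise of 2.39 and 3.04. Jun itself was at 3184, 3191 and 4125 CPM and was not called. Egr3 rose on 27, 45 and 20 UMIs, yet its ULC ratio was -1.35 less the median of the other classes. The part of the dissociation of the tissue in these levels was not tested. Heat shock genes, which respond to cell stress, had medians of 0.00 and 0.05, with 0 of 12 called in ULI and 1, Hspe1, lower in ULC.

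Glucocorticoid-responsive genes, in total, were called about as often as all genes. In ULI 3 of 19 rose and 1 fell, against 6.91% and 12.1% of all genes, and in ULC 3 of 18 rose and 0 fell, against 10.2% and 10.8%. Cd163, a gene of the rule, belongs to this list too and was not called against control. The medians were 0.36 and 0.44, and less the median of the other classes -0.06 and -0.12. Fkbp5, which binds the steroid receptor complex, was at 234 (204 to 266) CPM for control, 813 (744 to 887) for ULI and 599.8 (522 to 686) for ULC and rose by 1.798 (1.57 to 2.03) and 1.36 (1.08 to 1.64). The ratios of Fkbp5 in microglia-like cells were 1.67 and 1.26, and less the median of the other classes those of the macrophages were -0.12 and -0.50. Cdkn1a, an inhibitor of the cell cycle, rose in both, at 90.0, 244 and 387 CPM. Dusp1 and Txnip, at 1265, 1624 and 1635 CPM and 967, 540.4 and 1219 CPM, were not called against control.

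Growth factor receptors and lineage factors stood as follows. Csf1r, the receptor on which these cells depend, was at 3699 (3578 to 3822) CPM for control, 1778 (1675 to 1886) for ULI and 1438 (1316 to 1569) for ULC and fell, at -1.057 (-1.15 to -0.96) and -1.36 (-1.500 to -1.23), against -0.70 and -1.08 in microglia-like cells. Less the median of the other classes its ULC ratio turned to 0.43. Spi1 (PU.1), the factor that sets the myeloid lineage, fell in both on 80, 14 and 12 UMIs. Cebpb, which drives inflammatory genes in macrophages, was at 72.4, 197 and 213 CPM and rose by 1.45 (1.01 to 1.89) and 1.56 (1.07 to 2.05), with ratios of 0.35 and 0.28 in microglia-like cells. Cebpa was at 44.5, 19.2 and 281 CPM, so that it fell in ULI and rose in ULC, where microglia-like cells had a ratio of 2.77 and the ratio less the median of the other classes was -0.19. Of 21 genes of this list 1 rose and 3 fell in ULI, and 5 rose and 2 fell in ULC. Over all genes, 6.91% were called higher and 12.1% lower in ULI, and 10.2% and 10.8% in ULC. Klf4 and Mef2c, at 801, 991 and 864 CPM and 691, 649 and 603 CPM, were not called. Among 20 growth and matrix factors 3 rose and 4 fell in ULI, and 4 rose and 4 fell in ULC. Igf1, insulin-like growth factor 1, was at 946, 943 and 540.1 CPM and was not called in either, while Sdc4, a proteoglycan of the cell surface, rose in ULC, at 406, 308 and 1291 CPM, as it did in microglia-like cells (1.40).

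Microglia genes and genes of the cell cycle leaned downward on both sides. Of 15 microglia genes 0 rose and 6 fell in ULI, and 1 rose and 5 fell in ULC, with medians of -0.64 and -0.72, beside -0.50 and -0.63 in microglia-like cells. For this list and the next, the share of all genes called was 6.91% higher and 12.1% lower in ULI and 10.2% and 10.8% in ULC. Olfml3 fell in both on 92, 15 and 10 UMIs, and Cx3cr1, the fractalkine receptor, was at 1160, 752 and 725 CPM and was not called. Of the cell cycle list 0 of 11 rose and 4 fell in ULI, and 0 of 10 rose and 3 fell in ULC, with medians of -0.65 and -0.43 that turned to 0.38 and 0.92 less the median of the other classes. Cenpf, a protein of the kinetochore, was at 127, 48.1 and 59.7 CPM and was held by 22.7%, 7.56% and 7.41% of the cells. Stmn1, which destabilises microtubules, was at 223, 69.0 and 108 CPM. Less the median of the other classes, in which both genes were lower still in the operated mice, the ratios turned to 1.15 and 1.30 for Cenpf and 0.20 and 1.15 for Stmn1. A UMI of Mki67, Top2a or Cenpf was found in 27.3% (22.2 to 33.0), 9.78% (6.23 to 14.4) and 11.1% (6.35 to 17.7) of the cells, but 5, 1 and 2 cells held at least 2 of the 3, and 1 control cell held 62.2% of the Top2a UMIs.

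**Figure D5:**
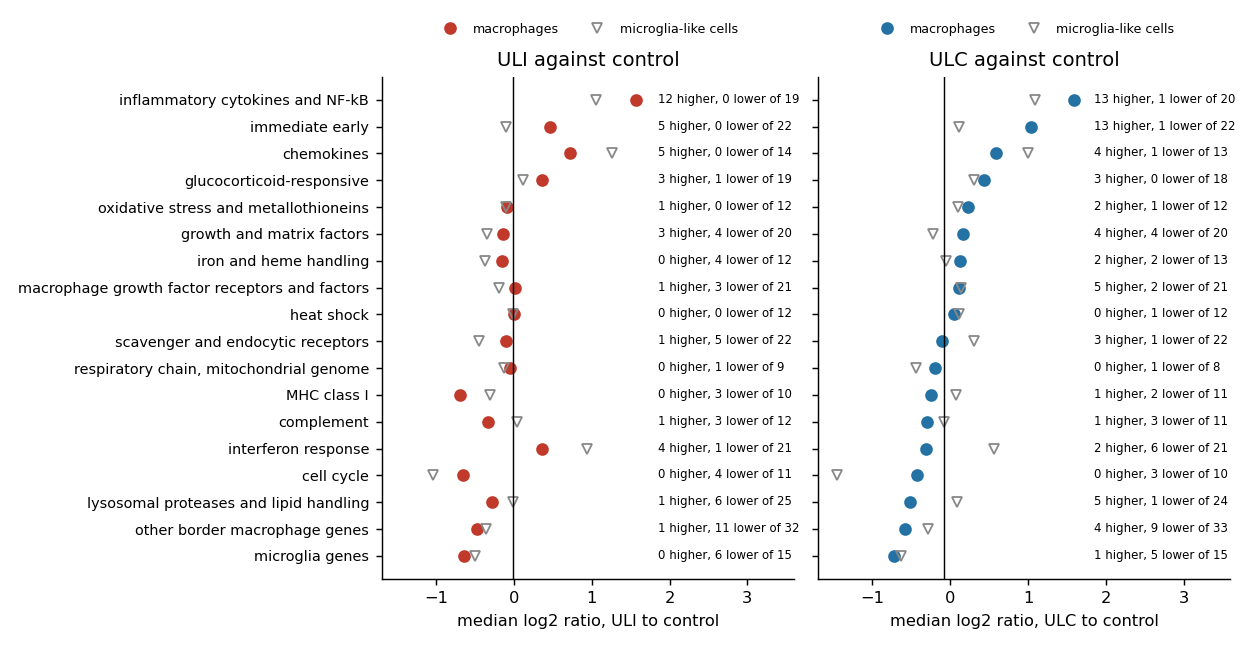
Median log2 ratio of the genes of 18 lists in macrophages (filled circles) and microglia-like cells (open triangles), ULI to control on the left and ULC to control on the right, with the number of macrophage genes called higher and lower beside each. The black line is the median of all genes, -0.01 and -0.08, and the inflammatory list lies furthest to the right in macrophages on both sides, at 1.56 and 1.59.

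Among 12 oxidative stress genes 1 rose and 0 fell in ULI, and 2 rose and 1 fell in ULC, and Txnrd1, which reduces thioredoxin, rose in both, by 2.44 and 2.98. Over all genes, 6.91% were called higher and 12.1% lower in ULI, and 10.2% and 10.8% in ULC. Of the genes of the mitochondrial genome mt-Nd3 fell in both, at -1.46 and -1.51, and the other 8 in ULI and 7 in ULC were not called, while less the median of the other classes the ULC ratio of mt-Nd3 turned to 0.15. Of 4 nuclear RNAs 1, Kcnq1ot1, rose in ULI and 0 were called in ULC. Among genes with at least 50 UMIs, the 10 lowest ratios of ULI to control ran from -4.10 for Pxmp4, a peroxisomal membrane protein, to -2.89 for Ly6e. The 10 lowest of ULC to control ran from -4.32 for Myo18a, an unconventional myosin, to -3.04 for Mrpl27, a mitochondrial ribosomal protein.

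Between ULI and ULC, the operated and the opposite side, 8.61% of 6310 genes were higher in ULI and 11.4% were lower, with a median ratio of 0.13. Border macrophage genes had 4 of 32 higher in ULI and 5 lower, immediate early genes 1 of 22 higher and 4 lower, and interferon genes 6 of 19 higher and 1 lower. The inflammatory list had 2 of 21 higher and 2 lower. Many of the largest ratios on the ULC side were found in other cells of that library too. Ftl1-ps1, a pseudogene of ferritin light chain, was at 94.1, 59.3 and 2720 CPM in the macrophages and at 31.3, 19.0 and 1449 CPM in microglia-like cells. Reads of this copy and its parent Ftl1 may be shared. Of the 1264 genes called between the sides, 1202 had a value in other classes, and in 478 of these the median of the other classes was past 2-fold in the same direction. Against control this held for 316 of 1345 genes in ULI and 419 of 1463 in ULC. Wfdc17, a small secreted protein near 0 in microglia-like cells, was at 108, 128 and 19.9 CPM, with a ULI to ULC ratio of 2.69 (1.58 to 4.05) and 71.4% of its ULC UMIs in 1 cell. Hspe1, a mitochondrial chaperone, was at 128, 175 and 31.3 CPM, with 2.48 (1.59 to 3.53) in macrophages and 0.25 in microglia-like cells. Ly6e, a surface protein induced by interferon, was at 1244, 168 and 1410 CPM and fell in ULI, at -2.89 (-3.19 to -2.60), but less the median of the other classes the ratio turned to 0.23.

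Cells with and without a UMI of Lyve1 were compared within each library, since Lyve1 marks a subset of border macrophages. Control had 136 with and 142 without, ULI 145 and 80, and ULC 80 and 55, and the cells with Lyve1 were deeper, at medians of 3596 against 2663, 2809 against 2434 and 2857 against 2021 UMIs. Il1b was lower in cells with Lyve1 in ULI, at 205.1 against 494 CPM, and in ULC, at 165 against 468 CPM, while in control it was at 84.3 against 56.2 CPM. The log2 ratios of cells with Lyve1 to cells without were -1.27 (-1.701 to -0.83), -1.51 (-2.14 to -0.88) and, in control, 0.59 (-0.15 to 1.36). Il1b was held by 8.27%, 19.6% and 18.5% of all the macrophages, so these levels rest on few cells. Nlrp3 had a ratio of -1.19 (-1.44 to -0.93) in ULI, at 592 against 1347 CPM, and of 0.10 (-0.26 to 0.47) in ULC. Cd83 was likewise lower with Lyve1 in ULI, by -0.76, while its ULC interval included 0. The chemokine genes Cxcl1, Ccl2 and Ccl7 went the other way. Their ULI ratios were 1.07, 0.41 and 0.64, their ULC ratios were 0.62, 0.74 and 2.05, and all these intervals lay above 0. For Cxcl2 the ULI ratio was -0.10, with an interval that included 0, and the ULC ratio was 0.16. For Slc40a1 the intervals of all 3 ratios included 0, at 0.06 in control, -0.05 in ULI and 0.04 in ULC. Lyve1 was also a gene of the rule, so cells without it had to hold 3 of the other 5, and whether the sets differ was not tested over mice.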

How the data were processed

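Single-cell RNA was measured in 1 pooled library of dissected MVN per group. The authors deposited 1 table of whole-number UMI counts per gene and cell, not normalized, with 28676 genes. The submitters' processing notes name CASAVA 1.8, UMI-tools, Seurat and mm10, while for the aligner, for the annotation and for how cells were called the entry is "not given in the sources used here". Barcodes are named by serial numbers, so barcode sequences shared between libraries could not be counted.

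Cells with at least 200 genes were kept, without a further filter. Macrophages held at least 3 of the 6 genes of the rule, and microglia-like, endothelial-like and plexus-like cells at least 3 of 6 markers of their class and at most 1 of those genes. The members and the gene lists were chosen with earlier results of these data known. UMIs were summed per library and class. Levels carry exact Poisson and ratios exact binomial 95% intervals, which treat UMIs as independent and leave out the spread between cells and mice, and no test over samples was possible with 1 library per group. The median of other classes was taken over up to 8 classes with at least 30 cells in each library. Named genes were the 6 of the rule, the 10 highest and lowest ratios per comparison (past 2-fold, at least 50 UMIs and 10 cells, no cell with over 20% of the UMIs), up to 4 genes per list with the most UMIs and those past 2-fold on both sides, and the 20 highest ratios to microglia-like cells at 100 CPM or more. Other list members were named after their values were seen, and some named genes are not reported here. Clustering used 2000 variable genes, 30 components, 20 neighbours and Leiden resolution 1. Doublets stayed in, and leaving out the top 5% of Scrublet scores, which removed 19, 9 and 5 macrophages, was an alternative, beside other marker numbers, floors, scalings and cell weights. The ratio code was tested on simulated data.

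Python 3.11.15 with numpy 2.4.6, scipy 1.17.1, pandas 2.3.3, scanpy 1.11.5, anndata 0.12.19, leidenalg 0.10.2 and matplotlib 3.10.9 was used, and alternative scaling factors alone came from edgeR 4.0.16 and from DESeq2 1.42.0 under R 4.3.3. Promoters came from RefSeq (GRCm38.p6) and gene positions from GENCODE.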

Additional observations from a re-analysis of the deposited data

Results flagged for a closer look

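Among the named genes, 6 were called in opposite directions against the shared control on the operated and the opposite side, and the difference between the sides was not tested over replicates. The log2 ratios of ULI and ULC to control were 1.001 and -1.32 for Gm4540, -2.62 and 3.04 for Ppp1ca, a catalytic subunit of protein phosphatase 1, -1.59 and 1.07 for Fcgrt, -1.97 and 1.98 for Hexa, -1.21 and 2.66 for Cebpa, and -2.37 and 1.27 for Selplg, a ligand of selectins. In microglia-like cells after thinning, the share holding each gene but Gm4540 was likewise lowest in ULI and highest in ULC. It was 40.6%, 16.9% and 61.3% for Selplg in control, ULI and ULC, and 2.69%, 4.15% and 2.67% for Gm4540. Less the median of other classes, the ULC ratios of Ppp1ca, Fcgrt, Hexa and Cebpa turned negative. Whether these differences are particular to macrophages was not tested.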

How the results depend on the processing

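No paired analysis was possible because each library pooled mice and each group has 1 library. With 1 library per group, counting error is the only error that could be given, and genes under 20 UMIs were not compared. The share of macrophages was 3.68% in ULI and 2.18% in ULC with at least 4 of the 6 genes, 3.59% in ULC with at least 2, 6.22% and 4.81% with 500 genes per cell, 5.79% and 4.86% after thinning, 3.83% in ULC by the Leiden cluster, and 14.5%, 25.3% and 30% in control, ULI and ULC of macrophages plus microglia-like cells. With a floor of 50 UMIs, 277 genes were higher and 501 lower in ULI, 401 and 475 in ULC, and 259 and 320 between ULI and ULC, a floor that leaves fewer genes to call. Without macrophages holding an oligodendrocyte marker, 595 genes were lower in ULI and 514 in ULC, from fewer cells. Less the median of other classes, 545 were lower in ULI than control, 421 higher in ULC than control and 256 lower in ULI than ULC, against 921, 748 and 721. These last 2 alternatives, and the share of macrophages plus microglia-like cells, were chosen after seeing the data.

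Less the median of other classes, the log2 ratio of ULI to control turned to -0.54 for Cxcl2, 0.0290 for Gm4149, 0.23 for Ly6e, 0.11 for Apoe, 0.11 for C1qc, -1.51 for Cd14, -0.83 for Ptgs2, -0.12 for Fkbp5, 0.20 for Stmn1 and 1.15 for Cenpf. That of ULC to control turned to -0.38 for Ftl1-ps1, -0.0575 for Gpx4-ps2, -0.95 for Ppp1ca, -0.72 for Fcgrt, 0.0389 for Fcrls, -0.76 for Hexa, 0.0936 for Fabp5, -0.62 for Cd14, -0.63 for Ptgs2, -0.50 for Fkbp5, -1.35 for Egr3, 0.43 for Csf1r, -0.19 for Cebpa, 1.15 for Stmn1, 1.30 for Cenpf and 0.15 for mt-Nd3. That of ULI to ULC turned to 0.54 for Ly6e, 0.48 for Ninj1, 0.37 for Ftl1-ps1, 0.53 for Gm6204, 0.0166 for Gnb2, 0.34 for Fcgrt, 0.0587 for Txnip and 0.0162 for Gpx1. The ratio of Cd209f in ULI turned to 0.22 without macrophages that held 2 markers of another class. For these reversals the cause was not tested. Of 428 gene ratios 238 moved and 34 reversed less the median of other classes, and without macrophages holding an oligodendrocyte marker 94 of 462 moved and 0 reversed. With at least 2 of the 6 genes 54 of 507 moved and 0 reversed, and with at least 4, 38 of 493 and 0. Under TMM 11 of 507 gene ratios moved and 0 reversed, and under median-of-ratios scaling 0 of 507 moved. Without doublets 8 of 502 moved and 0 reversed.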
